A study of Homo sapiens with 15 samples.

Results

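The mRNAs described here encode the nuclear-encoded subunits of respiratory complexes II, III, IV and V, together with cytochrome c and the ATP synthase inhibitor ATP5IF1. Members were the rows of the gene count table that map to SDHA, SDHB, SDHC, SDHD, CYC1, CYCS or to a symbol starting UQCR, COX4I, COX5, COX6, COX7, COX8 or ATP5, with pseudogenes left out. The rule matched 52 of 21519 rows. Of these, 51 are subunit genes (4 of complex II, 11 of complex III with cytochrome c, 17 of complex IV and 19 of complex V), and the remaining row is the read-through gene ATP5MF-PTCD1, which held 0 to 4 counts and was not described further. After the filter on low counts, 38 of the 51 subunit genes could be tested.

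RNA was taken from HEK-293, a human embryonic kidney cell line, in 4 groups. Input GEMIN5 (n = 3) and Polysome GEMIN5 (n = 4) were cells harvested 24 h after Lipofectamine LTX transfection of the plasmid pcDNA3Xpress-Gemin5, and Input control (n = 4) and Polysome control (n = 4) were untreated cells. GEMIN5 is an RNA-binding protein of the survival of motor neurons complex that also binds ribosomes. Input is RNA of the cytoplasmic lysate, and Polysome is RNA of fractions 8 to 12 of a 10 to 50% sucrose gradient. All cells, controls included, had been treated with cycloheximide, which holds ribosomes on mRNA. The controls received neither plasmid nor reagent, so an effect of GEMIN5 and an effect of transfection cannot be told apart, and the labels do not give the share of cells that took up the plasmid.

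The respiratory chain passes electrons from NADH and succinate to oxygen and pumps protons out of the mitochondrial matrix, and complex V, ATP synthase, uses the returning protons to make ATP. Complex II feeds in electrons from succinate, complex III hands them to cytochrome c, and complex IV reduces oxygen. Most subunits of complexes III to V are small proteins with short nuclear coding sequences, while cytochrome b of complex III, the catalytic core of complex IV and part of the membrane sector of complex V are encoded by mitochondrial DNA. The longest coding sequences of the set are those of the F1 subunits alpha and beta of ATP synthase, the core proteins of complex III and the flavoprotein SDHA.

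The shortest coding sequence of the set, that of ATP5F1E, belonged to the member with the largest difference in Input, and it is shown whole to give its scale against members of over 1200 coding bases. ATP5F1E encodes the epsilon subunit of the F1 stalk. Its coding exons lie on the minus strand at chr20:59030306-59032251 (GRCh38, GENCODE 29), and the spliced sequence is given from start to stop codon, which are in capitals.
ATP5F1E: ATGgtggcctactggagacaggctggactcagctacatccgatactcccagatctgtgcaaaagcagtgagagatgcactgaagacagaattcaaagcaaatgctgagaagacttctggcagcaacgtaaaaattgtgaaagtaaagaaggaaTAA
The c ring of ATP synthase, the rotor through which protons pass, is encoded by 3 genes that differ in their import sequence and make the same mature subunit. The last 90 coding bases of each are shown because reads of such related mRNAs could be confused, and capitals mark bases that are not the same in all of them. They lie at chr17:48895680-48895769 (ATP5MC1, plus strand), chr12:53665314-53665403 (ATP5MC2, minus strand) and chr2:175178288-175178377 (ATP5MC3, minus strand).
ATP5MC1: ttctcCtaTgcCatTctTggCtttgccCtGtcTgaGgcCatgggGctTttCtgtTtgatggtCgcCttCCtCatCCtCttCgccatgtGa
ATP5MC2: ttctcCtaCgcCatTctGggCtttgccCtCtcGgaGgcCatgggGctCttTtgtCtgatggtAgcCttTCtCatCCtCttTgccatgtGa
ATP5MC3: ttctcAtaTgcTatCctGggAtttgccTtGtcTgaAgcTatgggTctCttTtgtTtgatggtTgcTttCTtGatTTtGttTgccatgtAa
Over the last 228 coding bases, ATP5MC1 and ATP5MC2 were 89.0% identical, and ATP5MC3 was 81.1% identical to each of them.

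UQCRHL is a retrocopy of UQCRH, which encodes the hinge protein of complex III, and 4 of their 276 coding bases differ. Counts of the pair are therefore uncertain. The stretch that holds all of the differing bases, in capitals, is shown (coding bases 128 to 263, spliced, UQCRH on the plus strand within chr1:46310201-46316571 and UQCRHL on the minus strand at chr1:15807387-15807522).
UQCRH: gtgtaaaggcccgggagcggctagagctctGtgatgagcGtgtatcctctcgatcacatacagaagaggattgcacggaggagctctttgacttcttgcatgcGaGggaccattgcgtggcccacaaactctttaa
UQCRHL: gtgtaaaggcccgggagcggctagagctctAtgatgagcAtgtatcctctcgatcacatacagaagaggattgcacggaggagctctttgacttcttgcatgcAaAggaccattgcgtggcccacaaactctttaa

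Libraries held 11191417 to 18407933 counts. GEMIN5 reached 1319 to 1543 CPM (counts scaled to library size by the TMM method) in Input GEMIN5 against 12.4 to 15.9 in Input control, and 647 to 1035 in Polysome GEMIN5 against 4.19 to 7.18 in Polysome control. The Input GEMIN5 libraries stood apart from the rest. Ribosomal protein genes took 54.9 to 59.6% of their counts, against 33.9 to 35.1% in Input control, and their TMM factors were 0.354 to 0.488, against 0.971 to 1.03. All 6 HEK-293 markers were detected in every group, with 233 to 358 summed counts in Input GEMIN5 and 1481 to 1724 in Input control. Liver markers summed to 37 to 56 counts in Input GEMIN5 and 15 to 1716 in Input control, and to 12 to 26 in Polysome GEMIN5 and 1480 to 2052 in Polysome control. ALB was at 0 in every Input GEMIN5 library and had 588 and 414 counts in Input control replicates 3 and 4. Without these replicates, a setting chosen after seeing the data, 30 of the 38 members were higher in Input and 0 lower. The 4 Polysome control libraries held 448 to 584 ALB counts and the Polysome GEMIN5 libraries 0 to 3, and the part of these reads in the polysome comparisons was not tested.

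In Input, most members were higher in GEMIN5 cells. At an edgeR adjusted p under 0.05, 31 of the 38 tested members rose and 0 fell, where 27.1% of all 12197 tested genes rose and 24.3% fell. One member, ATP5F1B, was lower at an unadjusted p under 0.05, and DESeq2 called 2 members lower. The median log2 fold change was 1.56 over the members and -0.01 over all tested genes. The library values of the groups did not overlap for 32 members on the higher side and 4 on the lower side, against 29.8% and 29.1% of all tested genes. Without Input GEMIN5 replicate 2, 4 members were called lower, and the median of all tested genes was then -0.24. These directions depend on the scaling: with library size only, 18 members rose, 12 fell and the members' median was 0.26, while the median of all tested genes was -1.29. As a plain share of the library, the members took 2.92 to 3.22% of counts in Input GEMIN5 and 2.22 to 2.35% in Input control. In such bulk samples, fewer cells with an mRNA and less of it per cell cannot be told apart.

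**Figure D1:**
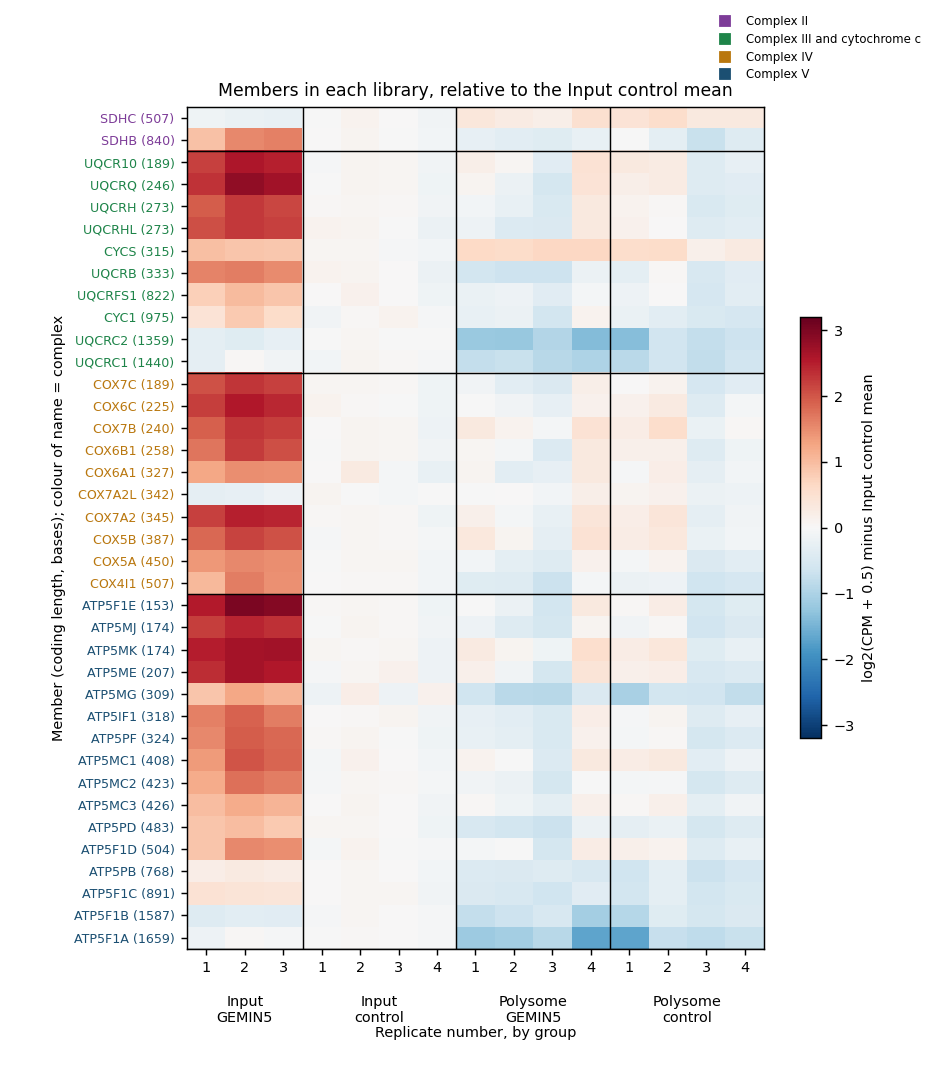
Each row is a tested member, grouped by complex and ordered by coding length in bases (in brackets), and each column is a library; colour gives log2(CPM + 0.5) minus the mean of the Input control libraries. The 3 Input GEMIN5 columns are red for most members with short coding sequences and pale for SDHC, COX7A2L, UQCRC1, UQCRC2, ATP5F1A and ATP5F1B.

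Complex II, succinate dehydrogenase, was measured through SDHB and SDHC. SDHB carries the iron-sulphur clusters, and its mRNA had 623, 940 and 984 CPM in Input GEMIN5 against 326, 344, 320 and 305 CPM in Input control. All Input GEMIN5 libraries lay above all Input control libraries, and SDHB rose by 1.39 on the log2 scale (SE 0.163, edgeR adjusted p = 1.04e-06). SDHC, a membrane anchor, had 155, 148 and 146 CPM in Input GEMIN5 against 170, 186, 173 and 160 CPM in Input control. The groups did not overlap, but the log2 fold change of -0.20 (SE 0.118) did not pass the test (edgeR adjusted p = 0.171). SDHA and SDHD could not be tested from counts and are taken up below through their spliced reads.

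In complex III with cytochrome c, 8 of 10 tested members rose. UQCRQ, a small subunit next to cytochrome b, had 3300, 4699 and 4255 CPM in Input GEMIN5 against 654, 707, 686 and 604 CPM in Input control. The lowest Input GEMIN5 library was thus well above the highest Input control library, and UQCRQ rose by 2.62 on the log2 scale (SE 0.218, edgeR adjusted p = 2.57e-08). UQCRH had 4262, 5337 and 4891 CPM in Input GEMIN5 against 1150, 1159, 1136 and 1025 CPM in Input control, a log2 fold change of 2.11, and the retrocopy UQCRHL had 2.18. CYCS, the mobile electron carrier, rose by 0.90 and CYC1, the haem subunit that reduces it, by 0.63 on the log2 scale. UQCRC2, a core protein facing the matrix, had 210, 200 and 217 CPM in Input GEMIN5 against 256, 271, 258 and 256 CPM in Input control. All Input GEMIN5 libraries lay below the Input control libraries, yet the log2 fold change of -0.32 (SE 0.153) did not pass (edgeR adjusted p = 0.0906), and that of its partner UQCRC1 was -0.12.

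In complex IV, cytochrome c oxidase, 9 of 10 tested members rose. COX6C had 2710, 3445 and 3110 CPM in Input GEMIN5 against 630, 597, 572 and 532 CPM in Input control, the largest log2 fold change of the complex (2.41, SE 0.163, edgeR adjusted p = 7.77e-09). COX7C had 5459, 6528 and 6132 CPM in Input GEMIN5 against 1387, 1387, 1375 and 1212 CPM in Input control. Both encode small membrane-spanning subunits, and neither gene's groups overlapped. COX4I1, the regulatory subunit that binds nucleotides, had 2535, 3797 and 3410 CPM in Input GEMIN5 against 1232, 1266, 1255 and 1160 CPM in Input control (log2 fold change 1.40). The member that did not rise was COX7A2L, a COX7A-related protein known from supercomplexes of complexes III and IV. COX7A2L had 84.1, 85.3 and 93.0 CPM in Input GEMIN5 against 110, 102, 99.3 and 102 CPM in Input control, and its log2 fold change of -0.24 (SE 0.116) did not pass (edgeR adjusted p = 0.0918).

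Complex IV subunits come in tissue forms. The ubiquitous forms COX6B1, COX7A2 and COX7B rose by 2.02, 2.37 and 2.14 on the log2 scale in Input. COX7A2 had 2206, 2742 and 2643 CPM in Input GEMIN5 against 499, 512, 500 and 443 CPM in Input control. COX7B had 2592, 3380 and 3206 CPM in Input GEMIN5 against 698, 733, 726 and 612 CPM in Input control, and COX6B1 had 2156, 3131 and 2776 CPM against 653, 697, 689 and 611 CPM. In all of them the groups lay far apart. The forms of heart and muscle (COX6A2, COX7A1), lung (COX4I2) and testis (COX6B2, COX7B2, COX8C) held 0 to 7 counts in every library, where 3 counts are 0.163 to 0.268 CPM without TMM scaling. COX8C and COX6B2 lie partly or wholly within another gene of the table, and spliced reads of COX8C, COX6A2, COX7A1, COX7B2 and COX4I2 were at 0 in all libraries.

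In complex V, 13 of 16 tested members rose. ATP5F1E had 5476, 7679 and 7272 CPM in Input GEMIN5 against 976, 991, 975 and 859 CPM in Input control. This was a fold of 7.17, the largest of all members (log2 fold change 2.84, SE 0.214, edgeR adjusted p = 1.37e-08). The small membrane subunits ATP5MK, ATP5ME and ATP5MJ followed with 2.62, 2.54 and 2.34 on the log2 scale. ATP5F1B, the catalytic beta subunit, had 1324, 1404 and 1381 CPM in Input GEMIN5 against 1704, 1857, 1780 and 1716 CPM in Input control. All Input GEMIN5 libraries were lower, by -0.37 on the log2 scale (SE 0.151), just outside the threshold (edgeR adjusted p = 0.0504), and it passed with DESeq2. The alpha subunit ATP5F1A had a log2 fold change of -0.05 and the stalk subunit ATP5PB one of 0.24, and neither passed.

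The c-ring genes all rose. ATP5MC1 had 1346, 2080 and 1878 CPM in Input GEMIN5 against 497, 568, 524 and 490 CPM in Input control (log2 fold change 1.77, SE 0.192). ATP5MC2 had 2439, 3671 and 3347 CPM in Input GEMIN5 against 1049, 1116, 1115 and 1031 CPM in Input control (log2 fold change 1.55, SE 0.173). ATP5MC3 had 1846, 2101 and 1985 CPM in Input GEMIN5 against 933, 988, 937 and 863 CPM in Input control (log2 fold change 1.09, SE 0.143). The groups of each gene stayed apart, and differences between the genes were not tested. With library size only, ATP5MC3 changed direction, to -0.21. ATP5IF1, which blocks ATP hydrolysis when the proton gradient fails, had 1574, 1915 and 1597 CPM in Input GEMIN5 against 518, 527, 543 and 475 CPM in Input control (log2 fold change 1.72, SE 0.165).

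**Figure D2:**
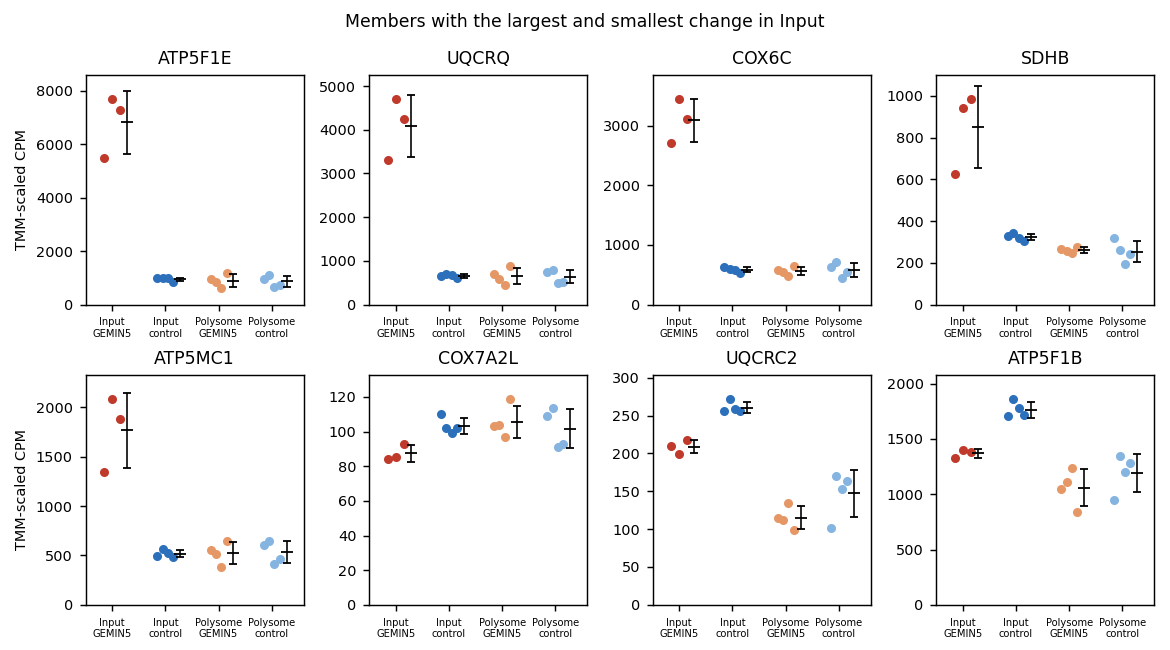
TMM-scaled CPM of 8 members in each library of the 4 groups; points are libraries, bars are the mean and SD. ATP5F1E, UQCRQ, COX6C, SDHB and ATP5MC1 stand high in Input GEMIN5 alone, while the Input GEMIN5 points of COX7A2L, UQCRC2 and ATP5F1B lie below Input control.

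The size of the Input difference followed coding length (without the stop codon). All 12 members under 300 coding bases rose, with a median log2 fold change of 2.37, as did 15 of 17 members of 300 to 599 bases (median 1.47) and 4 of 5 of 600 to 1199 bases (median 0.63). None of the 4 members of 1200 or more bases rose (UQCRC1, UQCRC2, ATP5F1A and ATP5F1B; median -0.22), and none fell at an adjusted p under 0.05. SDHC and COX7A2L, with 507 and 342 coding bases, were the 2 members under 600 bases that did not rise. Across the 38 members, Pearson's r between log2 coding length and log2 fold change was -0.84 and Spearman's rho -0.86, given as a description because genes share libraries and are not replicates. Among all 12086 tested genes with a coding length, r was -0.21. Of all tested genes, 193 of 248 under 300 bases and 798 of 1254 of 300 to 599 bases rose. At 600 to 1199 bases 1117 of 3419 rose, and at 1200 or more 1153 of 7165 rose and 1880 fell. The class medians of all tested genes were 1.55 under 300 bases, 0.88 at 300 to 599, 0.06 at 600 to 1199 and -0.15 at 1200 or more. The trend with length was thus not limited to the members.

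**Figure D3:**
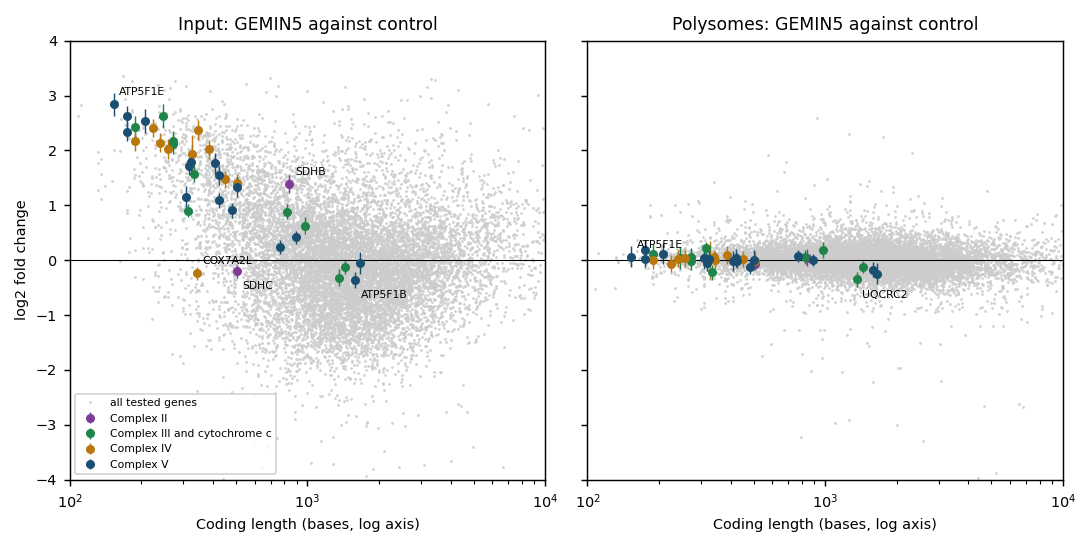
log2 fold change of GEMIN5 against control in Input (left) and polysomes (right) against coding length on a log axis; coloured points are the 38 tested members with SE bars and grey points all tested genes within the axes. In Input the members run from 2.84 for ATP5F1E to -0.37 for ATP5F1B, and in polysomes they lie between -0.35 and 0.22.

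Within members with long coding sequences, spliced reads showed where along the mRNA the libraries differed. For each intron, the deposited splicing table gives reads that join its flanking exons. Values are given on the CPM scale with no TMM scaling, on which the median tested gene lay at -1.29 (log2) between the Input groups. In SDHA, the intron 367 bases from the 3′ end of the mRNA had 10.7, 7.99 and 7.45 in Input GEMIN5 against 13.1, 14.2, 15.1 and 14.5 in Input control. The intron 2212 bases from the 3′ end had 0.869, 0.580 and 0.952 in Input GEMIN5 against 4.79, 4.18, 5.94 and 4.71 in Input control. Input GEMIN5 was lower at both introns, and the groups lay further apart at the one near the 5′ end. In ATP5F1B, the last intron, 245 bases from the 3′ end, had 139, 131 and 126 in Input GEMIN5 against 198, 205, 209 and 218 in Input control. Its first intron, 1607 bases from the 3′ end, had 15.2, 12.6 and 13.7 in Input GEMIN5 against 81.2, 98.2, 90.4 and 106 in Input control, again further apart. As log2 of last over first junction, the means were 3.36 ± 0.409 (SD, n = 3) in Input GEMIN5 and 1.53 ± 0.186 (SD, n = 4) in Input control for SDHA. For ATP5F1B they were 3.25 ± 0.108 and 1.15 ± 0.118, and for UQCRC2 2.52 ± 0.552 and 0.54 ± 0.137, in Input GEMIN5 and Input control. ATP5PO, a stalk subunit with 639 coding bases, had 1.39 ± 0.0534 in Input GEMIN5 and 1.15 ± 0.0879 in Input control.

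Over the 10 members with at least 6 matched introns, the library medians of this ratio were 1.82 to 2.00 in Input GEMIN5, 0.70 to 0.99 in Input control, 0.92 to 1.13 in Polysome GEMIN5 and 0.70 to 1.30 in Polysome control. Over 1573 genes of all kinds they were 1.41 to 1.51 in Input GEMIN5, 0.58 to 0.72 in Input control, 0.67 to 0.91 in Polysome GEMIN5 and 0.61 to 1.19 in Polysome control. The 3′ weighting and the share of ribosomal protein genes moved with the Input difference of the members, and their part in it was not tested.

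**Figure D4:**
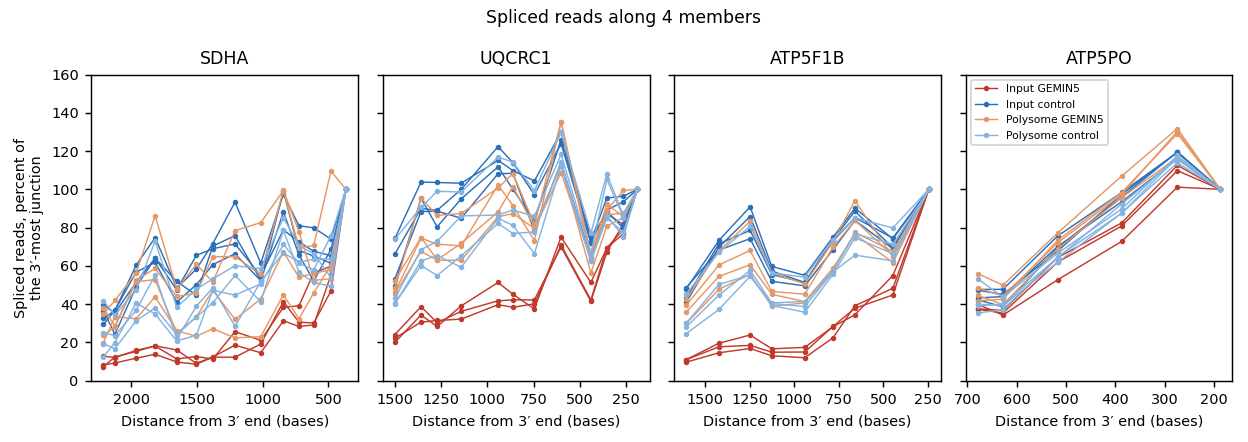
Spliced reads at each intron of SDHA, UQCRC1, ATP5F1B and ATP5PO as a percent of the 3′-most junction, against distance from the mRNA's 3′ end; each line is 1 library. Away from the 3′ end, the 3 Input GEMIN5 lines of SDHA, UQCRC1 and ATP5F1B lie below the 4 Input control lines, and those of ATP5PO lie below them by less.

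Some members cannot be read from the gene counts. SDHA, SDHD, UQCR11, COX8A, ATP5MF and ATP5PO held 0 or 1 count in every library, as did COX8C and ATP5MGL, and COX6A1 and ATP5MG 6 to 19 and 24 to 74 counts. Their spans lie at least 95.9% within another gene of the table on the same strand. Apart from COX8C, at 0, and ATP5MGL, which was not covered, their spliced reads, as the mean per junction divided by total counts (on the CPM scale, with no TMM scaling), show that the mRNAs were present. UQCR11 had 683, 712 and 694 in Input GEMIN5 against 228, 261, 249 and 256 in Input control. COX8A had 607, 818 and 734 in Input GEMIN5 against 325, 342, 342 and 357 in Input control, and COX6A1 had 558, 613 and 602 against 379, 395, 416 and 392. These small subunits of complexes III and IV were higher in every Input GEMIN5 library. ATP5MF, ATP5MG and ATP5PO of complex V lay at means of 472, 428 and 200 in Input GEMIN5 against 283, 282 and 170 in Input control. SDHA and SDHD of complex II lay on the other side. SDHA had 2.69, 2.10 and 2.31 in Input GEMIN5 against 8.06, 8.44, 9.51 and 10.1 in Input control. SDHD, read at its intron 3 because introns 1 and 2 were at 0 in every library, had 6.11, 4.41 and 7.50 in Input GEMIN5 against 23.1, 28, 24.4 and 26.2 in Input control. These values were not tested, and on this scale the median tested gene lay at -1.29 (log2). By spliced reads, SDHC, UQCRC1, UQCRC2 and ATP5F1B lay at -1.61, -1.46, -1.82 and -1.79 (log2) and SDHB at 0.07. Their TMM-scaled counts gave -0.20, -0.12, -0.32, -0.37 and, for SDHB, 1.39. The 2 measures are on different scales, so a value of one cannot be read directly against a value of the other. By both, SDHB lay highest of these genes, followed by UQCRC1 and SDHC. In polysomes the ranges of SDHD overlapped, with 31.1 to 40.4 at intron 3 in Polysome GEMIN5 and 32.4 to 36.9 in Polysome control.

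In polysomes, no member passed the test between GEMIN5 and control cells. edgeR called 0 of 38 members at an adjusted p under 0.05, where 0.402% of all tested genes were called (0.082% higher and 0.32% lower), and DESeq2 called 0. The groups overlapped for all 38, against 1.64% of all tested genes apart on the higher side and 1.71% on the lower side. The log2 fold changes ran from -0.35 to 0.22 with a median of 0.02, against 0.01 for all tested genes. UQCRC2 was the single member with an unadjusted p under 0.05 (log2 fold change -0.35, SE 0.141, edgeR adjusted p = 0.709), with 115, 112, 135 and 99.2 CPM in Polysome GEMIN5 against 102, 170, 152 and 164 CPM in Polysome control. Its ranges overlapped. ATP5F1E had 940, 835, 636 and 1184 CPM in Polysome GEMIN5 against 965, 1116, 641 and 727 CPM in Polysome control, and SDHB 268, 254, 248 and 275 CPM against 318, 259, 196 and 242 CPM. Among their own groups, the 4 members of 1200 or more coding bases were lowest in Polysome GEMIN5 replicate 4 and in Polysome control replicate 1. ATP5F1A had 333, 351, 401 and 230 CPM in Polysome GEMIN5 against 232, 446, 423 and 455 CPM in Polysome control. Without both libraries, again a setting chosen after seeing the data, 0 members were called.

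The GEMIN5 effect differed between the fractions for most members. The test of the difference itself called 29 of 38 members lower in polysomes than in Input and 0 higher (31 and 0 at an unadjusted p under 0.05; 20.5% and 16.9% of all tested genes were called), with a median of -1.63 against -0.01 over all tested genes. The difference was -2.78 for ATP5F1E, -2.59 for UQCRQ, -2.47 for COX6C and -1.35 for SDHB. All 12 members under 300 coding bases were among the 29, and 179 of all 248 tested genes of that length were called lower. With library size only, 18 members were lower and 11 higher, while the median of all tested genes was 1.27.

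In GEMIN5 cells, 35 of 38 members were lower in polysomes and 2 higher, where 35.0% of all tested genes were lower and 32.6% higher (67.6% in either direction), with a median of -1.81 against -0.01 over all tested genes. The groups did not overlap for 36 members on the lower side and 2 on the higher side, against 34.2% and 30.2% of all tested genes. ATP5F1E lay at -2.92, and the 2 higher members were SDHC at 0.54 and COX7A2L at 0.27 (edgeR adjusted p = 0.0456). A single member was called higher without any 1 of the Input GEMIN5 libraries, of Input control replicates 1, 2 and 3, or of Polysome GEMIN5 replicates 1, 2 and 4. With library size only 14 were higher and 12 lower, while the median of all tested genes was 1.78. In control cells, 9 members were lower and 2 higher, where 19.1% of all tested genes were lower and 24.1% higher, with a median of -0.15 against 0.02 over all tested genes. The groups did not overlap for 10 members on the lower side and 2 on the higher side, against 21.0% and 22.5% of all tested genes. Both comparisons use different libraries, and the test of their difference is the same as that of the GEMIN5 effect between fractions.

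In control cells, the members lower in polysomes included the 4 of 1200 or more coding bases. Among all 7165 tested genes of 1200 or more coding bases, the median log2 fold change was 0.08, with 1850 higher and 1464 lower. Pearson's r between log2 coding length and this log2 fold change was -0.62 over the 38 members and 0.06 over 12086 tested genes. The part of coding length in the lower values of the long members was not tested. ATP5F1A had 232, 446, 423 and 455 CPM in Polysome control against 736, 761, 755 and 724 CPM in Input control, or -0.94 on the log2 scale (SE 0.187, edgeR adjusted p = 0.000548). UQCRC2 lay at -0.82, UQCRC1 at -0.71, ATP5F1B at -0.57, ATP5PB at -0.53, ATP5F1C at -0.49, CYC1 at -0.39 and ATP5PD at -0.36. The last is the peripheral stalk subunit d, and ATP5MG, read from few counts, lay at -0.89. CYCS had 639, 646, 478 and 527 CPM in Polysome control against 452, 446, 416 and 403 CPM in Input control, and rose by 0.42 (SE 0.12). SDHC had 234, 256, 213 and 213 CPM in Polysome control against 170, 186, 173 and 160 CPM in Input control, and rose by 0.41. The groups of ATP5F1A, CYCS and SDHC did not overlap. Without Input control replicates 3 and 4, no member was called higher and 7 were called lower. Without Input GEMIN5 replicate 2, which enters the shared estimate of spread and scaling, 0 were higher. With library size only, 24 were higher and 0 lower, while the median of all tested genes was 0.54.

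**Figure D5:**
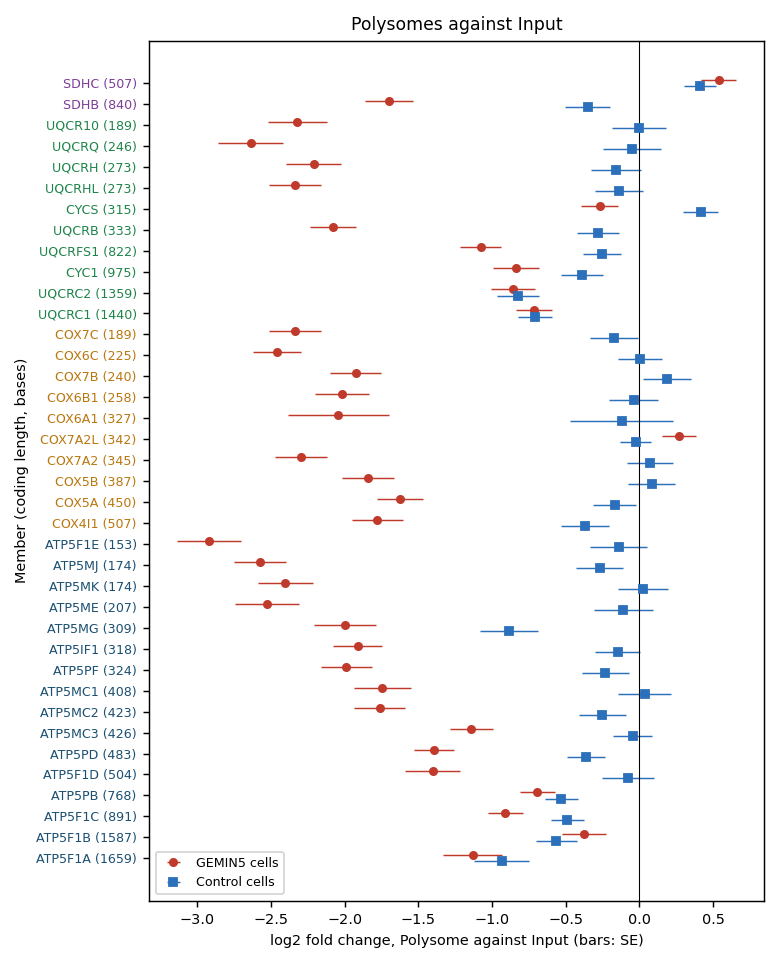
log2 fold change of Polysome against Input for each tested member (coding length in brackets), in GEMIN5 cells (red circles) and control cells (blue squares), with SE bars. In GEMIN5 cells the members reach -2.92, while in control cells they lie between -0.94 and 0.42; the members with the longest coding sequences, UQCRC1, UQCRC2, ATP5F1A and ATP5F1B, have their markers close to each other.

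Splicing events were available for 54 tested events in 22 member genes in Input and 43 in 16 genes in polysomes. In Input, 7 events were called by limma at an adjusted p under 0.05 (13%, against 4.29% of all 11930 events), 6 in SDHA and 1 in COX7A2L. In polysomes 0 were called (6 at an unadjusted p under 0.05), where 0.0% of all events were. Events were tested only if their highest inclusion level in the fraction was at least 5% and their lowest at most 95%. For exon 4 of SDHA and the COX7A2L event, every Input control value was above 95%. These events thus entered the test only through their Input GEMIN5 values, so their calls are not independent of the filter. The strongest in Input was the event of exon 4 of the 15 of SDHA, whose inclusion level (PSI) was 80.7, 44.0 and 17.5% in Input GEMIN5 against 98.7, 97, 96.2 and 95.4% in Input control (adjusted p = 0.0211). The values of Input GEMIN5 were spread widely and rested on 19.4, 7.04 and 3.14 inclusion reads and 4.64, 8.96 and 14.9 exclusion reads. In the same libraries, the spliced reads of introns 3 and 4, which join this exon to its neighbours, were 23, 21 and 21 and 27, 25 and 24. These exceed the inclusion reads of the event, so the size of the PSI change is uncertain. In Polysome GEMIN5 the same exon had 96.5, 91.1, 93.3 and 90%, and in Polysome control 95.2, 100, 97.5 and 100%. The exon lies on the plus strand at chr5:225419-225562 (GRCh38) and is shown in capitals with 20 bases of exons 3 and 5 on its sides, since these junctions carry the event.
SDHA: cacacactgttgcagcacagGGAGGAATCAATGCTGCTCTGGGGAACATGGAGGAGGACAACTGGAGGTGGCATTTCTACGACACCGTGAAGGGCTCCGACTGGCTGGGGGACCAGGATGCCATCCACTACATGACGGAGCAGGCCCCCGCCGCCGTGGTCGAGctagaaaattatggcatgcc
Exons 2, 5, 6 and 9 of SDHA gave mean PSI values of 53.7, 63.8, 65.2 and 62.5% in Input GEMIN5 against 97, 98.6, 98.4 and 97.3% in Input control. These exons lie in the part of SDHA whose spliced reads were few in Input GEMIN5, and SDHA has near-identical pseudogene copies, so the read assignment is uncertain. An alternative acceptor of SDHA lay at 9.44% in Input GEMIN5 and 1.83% in Input control (adjusted p = 0.0427), while the other acceptor of the same choice, at 90.6% in Input GEMIN5 and 98.2% in Input control, did not pass (adjusted p = 0.0599). Leaving out any single Input library lowered the number of events called: 1, 0, 1 and 2 were called without Input control replicate 1, 2, 3 or 4, and 4, 0 and 0 without Input GEMIN5 replicate 1, 2 or 3.

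The COX7A2L event, an exon of 132 bases at chr2:42353212-42353343, had PSI values of 92.5, 92.5 and 94.7% in Input GEMIN5 against 98.8, 98.4, 98.8 and 98.8% in Input control (adjusted p = 0.0475). In Polysome GEMIN5 it had 98.9, 99.5, 98.7 and 99.2%, and in Polysome control 99.6, 98.6, 98.2 and 98%. Among member events that were truly alternative (mean PSI between 10 and 90%), the 3 with the most reads had close values in the groups. The main donor of UQCR10 was used at 88.9% in Input GEMIN5 and 88.8% in Input control, and at 88.3% in Polysome GEMIN5 and 89.0% in Polysome control. The donor of ATP5MF that adds 18 bases was used at 61.5% in Input GEMIN5 and 60.1% in Input control, and at 64.0% in Polysome GEMIN5 and 61.8% in Polysome control. A 43-base exon of ATP5PF was included at 21.5% in Input GEMIN5 and 20% in Input control, and at 26.6% in Polysome GEMIN5 and 26.1% in Polysome control. None of these passed the test (limma adjusted p from 0.807 to 0.994).

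Genes around the complexes gave a mixed picture in Input. Of 32 tested assembly factors, 20 rose and 2 fell (27.1% and 24.3% of all tested genes), with a median log2 fold change of 0.93. UQCC2, which helps to build cytochrome b into complex III, rose by 2.15 and COA4, a complex IV assembly factor, by 1.55. TTC19, needed for complex III, lay at -0.95 and COX18, which inserts a COX2 segment into the membrane, at -1.08, and both fell. UQCC2 and COA4 have 378 and 261 coding bases, and TTC19 and COX18 have 1140 and 999. Other assembly factors ran differently: SURF1, with 900 coding bases, rose by 1.84, and SDHAF3, with 375, lay at 0.23 and did not pass (edgeR adjusted p = 0.279). The part of coding length in these differences was not tested. Of 9 transcription regulators of respiratory genes, 1 rose and 3 fell (median -0.09), where 27.1% of all tested genes rose and 24.3% fell. PPRC1, a coactivator, rose by 0.84, while TFAM, which packages and transcribes mitochondrial DNA, fell by 1.08 and TFB2M by 0.39 on the log2 scale. GABPA, an ETS factor, had a log2 fold change of -1.33 and also fell.

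Of the 6 mitochondrially encoded partners, 1 fell and 0 rose in Input by edgeR (1 at an unadjusted p under 0.05), where 24.3% of all tested genes fell and 27.1% rose. MT-ATP8 had 72.5, 34.9 and 51.7 CPM in Input GEMIN5 against 404, 379, 374 and 317 CPM in Input control, or -2.79 on the log2 scale (SE 0.303, edgeR adjusted p = 4.12e-07). Its reading frame overlaps that of MT-ATP6, so the split of reads between them is uncertain. MT-CO1, the catalytic subunit of complex IV, had 4733, 3888 and 5699 CPM in Input GEMIN5 against 7595, 6025, 6448 and 6028 CPM in Input control and did not pass. In polysomes against Input, 5 of them were lower in GEMIN5 cells and 6 in control cells (35.0% and 19.1% of all tested genes), at -3.51 and -3.65 for MT-CO2. Of the 4 carriers of ATP and phosphate, SLC25A6 alone was called in Input and rose by 0.88. Of 6 tested genes of electron entry outside the complexes, ETFB alone was called. It encodes the electron transfer flavoprotein beta subunit and rose by 0.37. Among all tested genes, 27.1% rose and 24.3% fell. No gene of these lists was called between GEMIN5 and control cells in polysomes, where 0.402% of all tested genes were.

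The members' RefSeq promoters (GRCh38.p14, 250 bases before to 50 after the start) were searched on both strands for the letters of known regulator motifs. Promoters were matched for 39 of the 51 members. The core motif of ETS factors such as GABP, CCGGAAG, was present in 15 of 39 (38.5%), against 19.1% of 9862 promoters of tested genes. The NRF1 core GCATGCG was present in 9 (23.1%), against 6.41%, and the YY1 core AAGATGG in 9 (23.1%), against 7.51%. The letters searched for NRF1 and YY1 were shortened after longer forms, which fewer members held, had been searched, and none of the 3 motifs contains another. These are matches of letters, with no binding measured, and a link to the Input difference was not tested. Of the 9 holders of the YY1 core, UQCRC1, UQCRC2 and ATP5PB did not rise in Input. ATP5ME, ATP5MG, ATP5PF, COX7C and SDHB rose, and ATP5PO could not be tested from counts. Windows of 2 members that rose and hold the ETS core upstream of the start are shown with the core, or its reverse complement, in capitals (chr5:132866578-132866604, plus strand, and chr1:17054144-17054170, minus strand).
UQCRQ: atggtatctcCCGGAAGttacctcacg
SDHB: acccgggaaaCCGGAAGccgcctccca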

How the data were processed

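RNA-seq of 15 libraries of HEK-293 cells was analysed. The authors deposited raw counts per gene, made with STAR 2.7.10a and featureCounts per the submitters' processing notes. For the counts, the sources used here give no featureCounts version, genome build or option on strand or overlapping genes. The length column equals the gene span for all 21519 genes. The authors also deposited a splicing table with inclusion levels in percent (PSI) and, in a text column, corrected read numbers, per the file headers. Libraries were poly(A)-selected and stranded, per the labels' protocols.

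Genes passing filterByExpr (12197) were scaled by TMM and fitted in all 4 groups together with edgeR 4.0.16 (quasi-likelihood, robust). p-values were adjusted by Benjamini-Hochberg with a threshold of 0.05. DESeq2 1.42.0 was an alternative. Events with at least 10 reads in every library of a fraction were tested as log2 odds with limma 3.58.1. Their highest PSI in the fraction had to be at least 5 and their lowest at most 95, and this filter used both groups. Spliced reads per junction came from the same read numbers, and rest on corrected, not raw, reads. Total counts of 11191417 to 18407933 set the counting precision. The tests were tested on simulated data. The simulated counts were drawn from the Input control means with few genes changed. They therefore cannot speak to the scaling on which the Input directions depend. The labels call samples independent but do not name separate cultures, so the p-values cover only the spread among these libraries, which may be technical. Replicate numbers are not stated to pair samples, and correlations of same-numbered deviations ran from -0.56 to 0.49. No block was therefore used.

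The members and lists were chosen with earlier results of these data known. Named with library values were, per complex, the members highest in mean CPM, the largest and the smallest change in Input, and a fixed set, and further members are named by coding length, overlap or call. Sequences are from GENCODE 29 transcripts (GRCh38) and RefSeq promoters (GRCh38.p14). Scaling, filters, tools, single libraries and the replicate block were varied. Figures were drawn with matplotlib 3.10.9.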

Additional observations from a re-analysis of the deposited data

Results flagged for a closer look

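In 3 of 63 sets of library values tested, 1 library lay far from the rest of its group, where chance gives about 1 in 20. ATP5F1E had its lowest Input control library at 859 CPM and COX7C at 1212 CPM, both in replicate 4. UQCRC2 had its highest Input control library at 271 CPM, in replicate 2.

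The GEMIN5 effect was smaller in polysomes than in Input, by a test of the difference itself, for 29 of 38 members. On the log2 scale the difference of the effects, polysomes minus Input, was -2.78 for ATP5F1E, -1.77 for ATP5IF1, -1.78 for ATP5MC1, -1.51 for ATP5MC2 and -1.10 for ATP5MC3. In complex IV it was -1.41 for COX4I1, -1.93 for COX6A1, -1.98 for COX6B1, -2.47 for COX6C, -2.37 for COX7A2, -2.11 for COX7B and -2.17 for COX7C. For SDHB it was -1.35, for UQCRH -2.05 and for UQCRQ -2.59. COX6A1 rests on 6 to 19 counts per library.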

How the results depend on the processing

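With library size only, 18 members were higher and 12 lower in Input (median 0.26), 11 higher and 18 lower in the test between fractions (median -0.32), 14 higher and 12 lower in polysomes against Input in GEMIN5 cells (median 0.0090), and 24 higher and 0 lower in control cells (median 0.36). It also turned the direction of ATP5MC3 in Input (-0.21) and between fractions (0.20), and of CYC1 (0.13), ATP5F1C (0.025) and ATP5PD (0.15) in polysomes against Input in control cells. The number of members lower in Input was 2 with RLE scaling, DESeq2 or no filter, 3 with only the 2 groups compared, and 0 to 4 leaving out single libraries, with a median from 1.25 to 1.63. Leaving out single libraries gave medians from -1.74 to -1.31 between fractions and from -1.93 to -1.56 in polysomes against Input in GEMIN5 cells, where 1 to 2 members were higher. That number was 1 with RLE scaling, with the replicate block, and without Polysome control replicate 1 and Polysome GEMIN5 replicate 4 together. In control cells, 0 to 2 members were higher without single libraries, 1 with only the 2 groups compared, and 0 without Input control replicates 3 and 4. Splicing events called in Input numbered 2 with the replicate block and 0 to 4 without single libraries. The members' mean share without ribosomal protein and mitochondrially encoded genes was 7.52% in Input GEMIN5, 3.73% in Input control, 3.76% in Polysome GEMIN5 and 3.70% in Polysome control. The replicate block moved no other count of members past 1.5 times; same-numbered samples share only a number. Causes were not tested. The SDHA exon events rest on few reads. SDHA, SDHD, UQCR11, COX8A, COX6A1, ATP5MF, ATP5MG and ATP5PO had few or no counts but clear spliced reads. They lie wholly or almost wholly within another gene on the same strand, and the part of this overlap in their counts was not tested.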
